A study of Mus musculus with 12 samples.

Results

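The lecticans, tenascins and hyaluronan link proteins of the perineuronal and glial matrix were followed in primary mouse oligodendrocytes (OLs) treated with siEgr2 or with a scrambled control (siNC). The members are the 4 lecticans Acan (aggrecan), Bcan (brevican), Ncan (neurocan) and Vcan (versican), the 2 tenascins Tnc and Tnr, and the 4 link proteins Hapln1, Hapln2, Hapln3 and Hapln4. They were chosen by symbol, and all 10 were found among the 56860 named genes of the count table. Of these, 8 passed the filter on low counts and were tested among 16600 genes, while Hapln1 and Hapln3 did not pass it.

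Lecticans are large chondroitin sulfate proteoglycans that bind hyaluronan at their N-terminal end and tenascins at their C-terminal lectin domain. Link proteins clamp the lectican to the hyaluronan chain, and Tnr, which forms trimers, cross-links lecticans to each other. The resulting mesh surrounds neurons, nodes of Ranvier and glial precursors, and it is known for limiting axon growth and the maturation of OL precursors after injury. Tnc is the tenascin of development, of reactive astrocytes and of wounds.

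The OLs came from C57BL/6J mice. The labels give the medial prefrontal cortex as the tissue, and the methods of the study describe newborn cortex, anti-O4 microbeads, expansion in PDGF-AA and differentiation with insulin, triiodothyronine and ciliary neurotrophic factor. Both groups share this history, and each holds 6 libraries harvested 48 h after transfection with siEgr2 or siNC. The methods call the reagent both an siRNA and an interference plasmid, and nothing states whether the 6 libraries of a group came from separate cultures, so that p-values measure the spread between these libraries, which may be technical.

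The siNC libraries held 28682946 to 39383014 counts on genes and the siEgr2 libraries 8034251 to 16683677, and the share of 18S ribosomal RNA (Rn18s-rs5) was 0.142% to 1.05% against 10.5% to 16.5%. Depth and this share therefore cannot be told apart from the treatment. OL markers were high in both groups, with a summed level of 7749 to 8882 CPM (counts per 1000000, on the TMM scale) for 12 myelinating OL markers in siNC and 7323 to 7634 CPM in siEgr2. The summed level of 11 astrocyte markers was 8485 to 9191 CPM in siNC and 5377 to 6114 CPM in siEgr2, and none of them was at 0. Among the other cell types, Aif1 of microglia and Cldn5 of endothelial cells had no count in any library. In bulk RNA, fewer cells of a type and less RNA per cell cannot be told apart.

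The level of the targeted gene Egr2, a zinc finger transcription factor known for its part in peripheral myelination, ran from 3.89 CPM (median 5.19) to 7.06 CPM in siNC and from 2.22 CPM (median 3.93) to 4.86 CPM in siEgr2. The groups overlapped. Its log2 fold change was -0.51 ± 0.21 (SE). The quasi-likelihood test of edgeR, adjusted over all tested genes by Benjamini-Hochberg, gave 0.0981 as its adjusted p, and Egr2 was not called. The log2 fold change was -0.33 with all libraries thinned to the lowest depth and -0.70 with scaling by library size alone.

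To be called, a gene had to have an adjusted p below 0.05 in this test and a log2 fold change beyond 0.5 in either direction. By this rule 1 of the 8 tested members was called lower in siEgr2 and 0 were called higher, beside 5.08% of all tested genes called lower and 2.63% called higher. The called member was Tnc. At the adjusted p alone, with no threshold on the fold, 3 of the 8 passed (Tnc and Ncan lower, Vcan higher), beside 19.9% of all tested genes. The pass of Vcan was lost when any of 7 of the 12 libraries was left out. The median log2 fold change of the 8 was -0.14, beside 0.005 over all tested genes.

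**Figure D1:**
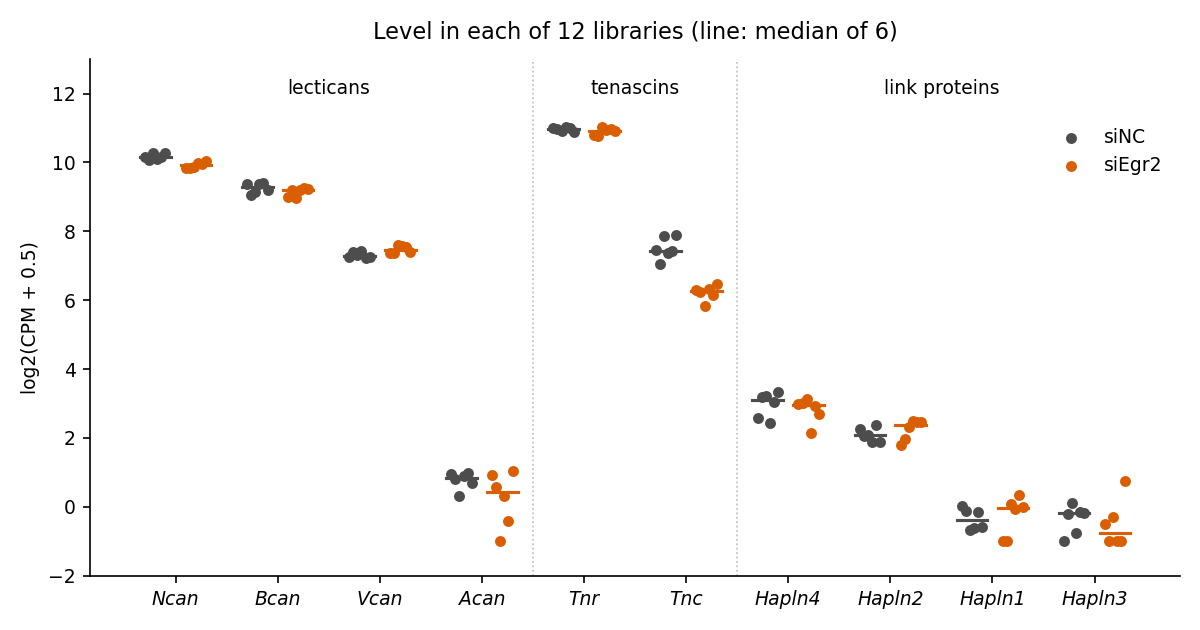
Level of the 10 genes in each of the 12 libraries, as log2(CPM + 0.5), with siNC in grey, siEgr2 in orange and a line at the median of 6 libraries. Tnc is the gene whose groups stand farthest apart, with 132 to 237 CPM in siNC and 56.1 to 88.5 CPM in siEgr2.

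Tnc (tenascin-C, a hexameric glycoprotein of migrating and reactive glia) lies on the minus strand at chr4:63959785-64047015 of GRCm38. Its level was 132 CPM at the lowest, 173 CPM at the median and 237 CPM at the highest in siNC, and 56.1, 76.5 and 88.5 CPM in siEgr2. All 6 siEgr2 libraries were below all 6 siNC libraries. Tnc fell by 59.8%, with a log2 fold change of -1.31 ± 0.15 (SE, 95% interval -1.65 to -0.98) and its adjusted p in edgeR's test was 9.7e-05. Of the 16600 genes, 345 had a larger absolute log2 fold change. Its raw counts, 4324 to 9881 in siNC and 548 to 1152 in siEgr2, leave little counting error. The SD between libraries was 22% of the mean in siNC and 14.6% in siEgr2, wider in siNC than for Ncan, Vcan or Tnr.

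Astrocytes also make Tnc, and their markers moved in the same direction. Of the 11 astrocyte markers, 6 were called lower and 0 higher, with a median log2 fold change of -0.60 and a range from -0.85 to -0.11. The log2 fold change of Tnc lay below that range. Fibroblast and pericyte markers were called lower in 4 of 9 genes (median -0.45), with a summed level of 923 to 1482 CPM in siNC and 916 to 1107 CPM in siEgr2. With all libraries thinned to the lowest depth, the log2 fold change was -1.312 for Tnc and -0.25 for Ncan. With structural RNA left out it was -1.305 and -0.247. Beyond these refits, the part of depth and of the ribosomal RNA share in the fall of Tnc, and in the level of Ncan below, was not tested. The part of these cells was not tested.

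Tnr (tenascin-R, the tenascin of OLs and perineuronal nets) lies on the plus strand at chr1:159523769-159931729. Its level was 1878 CPM at the lowest, 2024 CPM at the median and 2090 CPM at the highest in siNC, and 1737, 1944 and 2083 CPM in siEgr2. The groups overlapped over most of their range. Its log2 fold change was -0.06 ± 0.04 (SE), at an adjusted p of 0.387 by edgeR's test, and its 95% interval from -0.15 to 0.03 did not meet that of Tnc. Tnr was the member with the most counts, at rank 14 of all genes by mean CPM in siNC.

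The sequences upstream of the 2 tenascins were set side by side, since Tnc was called and Tnr was not and since the treatment targeted a factor of the EGR family. They are the 250 bases before a transcription start given by RefSeq on GRCm38.p6, read 5′ to 3′ on the strand of the gene, at chr4:64047016-64047265 (minus strand) for Tnc and chr1:159523519-159523768 (plus strand) for Tnr. Capitals mark a match to the EGR motif GCGNGGGCG or to TATAAA on either strand.
Tnc: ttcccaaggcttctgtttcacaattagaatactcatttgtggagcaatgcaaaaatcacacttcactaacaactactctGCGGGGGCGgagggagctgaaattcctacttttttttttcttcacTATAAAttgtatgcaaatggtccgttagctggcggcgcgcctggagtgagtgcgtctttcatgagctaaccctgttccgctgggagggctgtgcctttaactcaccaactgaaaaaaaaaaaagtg
Tnr: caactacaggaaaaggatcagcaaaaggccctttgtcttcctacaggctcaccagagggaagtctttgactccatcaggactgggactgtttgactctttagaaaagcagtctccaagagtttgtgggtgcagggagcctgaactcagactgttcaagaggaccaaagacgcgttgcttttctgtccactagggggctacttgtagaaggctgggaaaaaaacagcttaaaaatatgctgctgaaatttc
The Tnc stretch held the EGR letters from 171 to 163 bases and TATAAA from 126 to 121 bases upstream of this start, and the Tnr stretch held neither. RefSeq gives Tnc a second window, chr4:64046937-64047186, from whose start the same letters lie 250 to 242 and 205 to 200 bases upstream. RefSeq windows were found for 9 of the 10 members, Hapln4 being the exception, and Tnc was the only member of the 9 with the EGR motif. Of 32851 windows of the same length over all genes, 4.7% held it, and counted by gene, as the members are, 1440 of 27025 did. TATAAA was in 3 of the 9 members (Tnc, Hapln3 and Ncan), in 12.4% of all windows and in 3872 of the 27025 genes. The AP-1 motif TGANTCA was in 0 of the 9, in 6.75% of all windows and in 2113 of the 27025 genes. A match in letters is a description and not a site of binding.

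Of the 4 lecticans, 0 were called, and their log2 fold changes lay between -0.56 and 0.17. Ncan, made by neurons, astrocytes and precursors, lies at chr8:70093085-70120873 on the minus strand. Its level was 1081 CPM at the lowest, 1137 CPM at the median and 1229 CPM at the highest in siNC, and 909, 963 and 1047 CPM in siEgr2. As with Tnc, all siEgr2 libraries were below all siNC libraries, so that 2 of the 8 tested members had groups that did not overlap, beside 11.2% of all tested genes. The difference was small: the log2 fold change of Ncan was -0.26 ± 0.04 (SE, 95% interval -0.35 to -0.16), at an adjusted p of 0.000503 by edgeR's test, and it did not reach the fold threshold.

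Vcan, the lectican of OL precursors and of nodes, lies at chr13:89655312-89742509 on the minus strand. Its level ran from 149 CPM (median 156) to 171 CPM in siNC and from 163 CPM (median 176) to 196 CPM in siEgr2. The siEgr2 libraries were placed higher, with 3 of 6 above every siNC library, and the groups overlapped. The log2 fold change was 0.17 ± 0.05 (SE), at an adjusted p of 0.0396 by edgeR's test, under the fold threshold. Without siNC replicate 1, 3, 5 or 6 or siEgr2 replicate 3, 4 or 5 the adjusted p in edgeR was 0.0608 to 0.1, and it was 0.0791 after thinning to the smallest total and 0.143 without the filter. With scaling by library size alone the log2 fold change was -0.01, while the median of all genes shifted to -0.18, so that Vcan lay 0.16 above that median.

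Bcan, a short lectican of astrocytes and OL precursors, lies at chr3:87987531-88000230 on the minus strand. Its level ran from 527 CPM (median 622) to 675 CPM in siNC and from 500.0 CPM (median 586) to 610 CPM in siEgr2. The groups overlapped, with 3 siNC libraries above every siEgr2 library. The log2 fold change was -0.12 ± 0.07 (SE, 95% interval -0.27 to 0.04), at an adjusted p of 0.297 by edgeR's test.

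Acan, the lectican of cartilage and of dense perineuronal nets, lies at chr7:79053483-79115099 on the plus strand and was near the limit of detection. Its counts were 23 to 49 in siNC and 0 to 21 in siEgr2, where 1 library had none. A count of 0 allows up to 3 counts, which is 0.185 to 0.384 CPM in the siEgr2 libraries, for counting error only. The log2 fold change was -0.56 ± 0.51 (SE), and its 95% interval from -1.65 to 0.53 covers a fall as large as that of Tnc as well as no change (adjusted p of 0.495 in edgeR's test). Without siEgr2 replicate 3, the library with 0 counts, the log2 fold change was -0.28. At this depth no difference was detectable.

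The link proteins were scarce. Hapln4, the link protein of inhibitory synapses that partners brevican, lies at chr8:70083457-70090862 on the plus strand. Its level was 4.89 CPM at the lowest, 8.15 CPM at the median and 9.51 CPM at the highest in siNC, and 3.89, 7.28 and 8.22 CPM in siEgr2. The groups overlapped. Its log2 fold change was -0.16 ± 0.20 (SE, 95% interval -0.58 to 0.26), at an adjusted p of 0.634 by edgeR's test. It was -0.04 without siEgr2 replicate 4, -0.08 without siNC replicate 6 and -0.26 without siNC replicate 4.

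Hapln2, the link protein that OLs place at nodes of Ranvier, lies at chr3:88021750-88027583 on the minus strand. Its level ran from 3.16 CPM (median 3.72) to 4.71 CPM in siNC and from 2.96 CPM (median 4.74) to 5.08 CPM in siEgr2. The siEgr2 range held the whole siNC range, and 3 siEgr2 libraries were above every siNC library. The log2 fold change was 0.18 ± 0.18 (SE, 95% interval -0.19 to 0.56), at an adjusted p of 0.518 by edgeR's test.

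Hapln1, the link protein of cartilage, and Hapln3, a more widely expressed link protein, were at the floor of the assay and were not tested. Hapln1 had 4 to 18 counts in siNC (median 9.5) and 0 to 9 in siEgr2 (median 5.5), with 0 counts in 2 siEgr2 libraries. Hapln3 had 0 to 18 counts in siNC (median 12) and 0 to 12 in siEgr2 (median 1.5), with 0 counts in 1 siNC and 3 siEgr2 libraries. On the log2(CPM + 0.5) scale, the exact 2-sided permutation test of 6 against 6 libraries gave p = 0.788 for Hapln1 and p = 0.675 for Hapln3. These counts cannot resolve a difference.

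**Figure D2:**
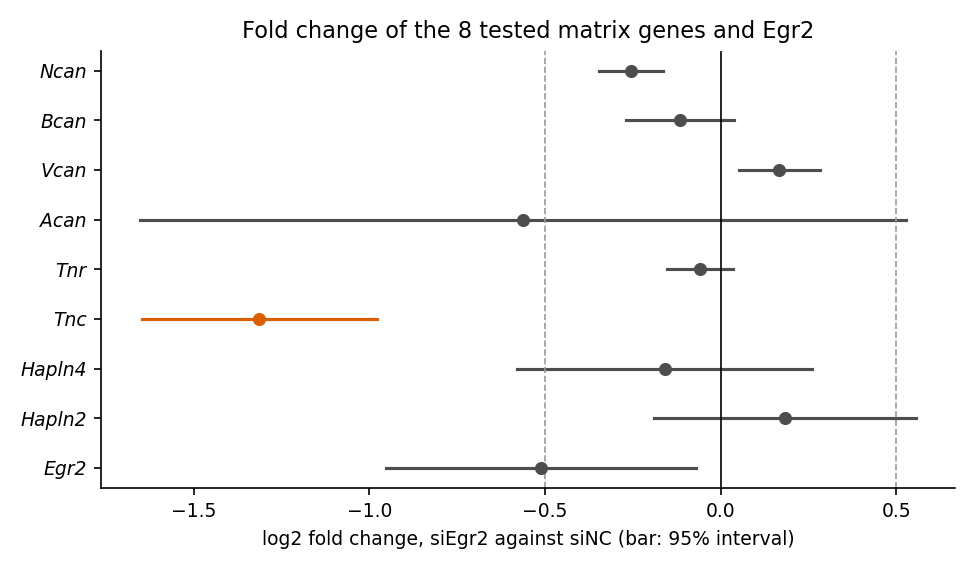
Log2 fold change of the 8 tested members and Egr2, siEgr2 against siNC, with bars for the 95% interval and dashed lines at -0.5 and 0.5. Tnc, in orange, is the called gene, with an interval from -1.65 to -0.98, and the intervals of Bcan, Acan, Tnr, Hapln2 and Hapln4 include 0.

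Levels of different genes were compared as CPM per kb of exon in GENCODE M21. In siNC the order was led by Ncan at 160 ± 8.6, Tnr at 155 ± 6.5 and Bcan at 150.5 ± 15.7 CPM per kb (SD, n = 6), and the ranges of neighbours in this trio overlapped. They made up 31.8%, 30.8% and 29.8% of the summed level per kb of the 10 genes. Tnc followed at 23.8 ± 5.2 and Vcan at 10.9 ± 0.65 CPM per kb, each apart from its neighbours. Hapln4 (1.91 ± 0.48) and Hapln2 (1.60 ± 0.25) overlapped each other, and Acan, Hapln3 and Hapln1 lay at or under 0.164 CPM per kb with overlapping ranges.

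In siEgr2 the level per kb was led by Tnr at 149 ± 10.9, Bcan at 139 ± 11.9 and Ncan at 134 ± 8.2 CPM per kb (SD, n = 6), again with overlapping ranges. Tnc, at 9.59 ± 1.4 CPM per kb, had passed below Vcan, at 12.3 ± 0.96 CPM per kb, though the ranges of these 2 genes overlapped in siEgr2. The share of Tnc in the summed level per kb was 4.71% ± 1.01 in siNC and 2.14% ± 0.31 in siEgr2. The share of Vcan was 2.17% ± 0.19 and 2.75% ± 0.21.

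**Figure D3:**
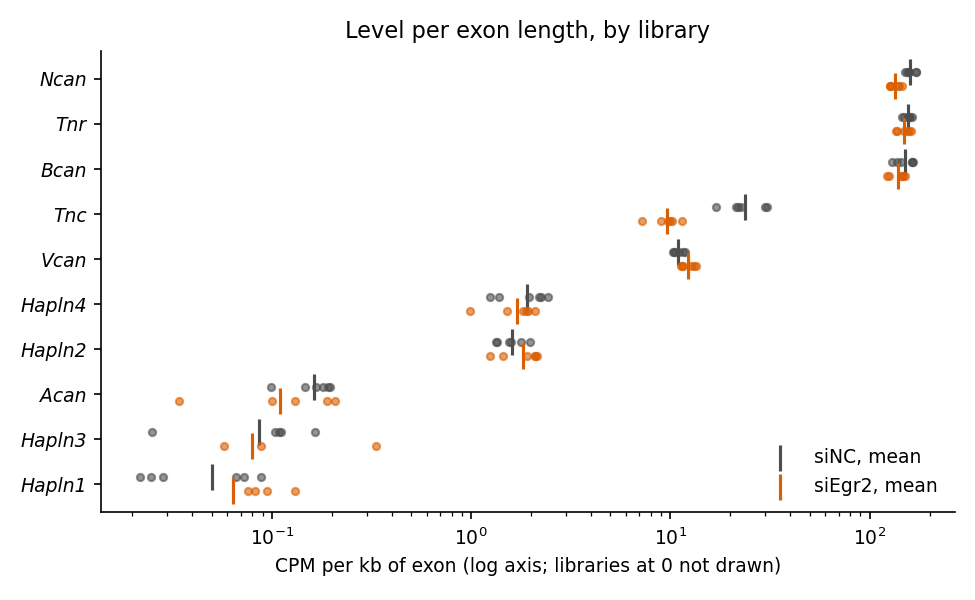
Level per kb of exon on a log axis, with a point for each library and a vertical tick at the mean of 6 libraries, siNC in grey and siEgr2 in orange. Ncan, Tnr and Bcan sit between 123 and 171 CPM per kb in all 12 libraries, and the 4 link proteins and Acan lie under 3 CPM per kb.

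Each link protein gene lies near a lectican gene in the mouse genome, and the pairs were compared as ratios of (CPM + 0.5) within a library, in which the scaling of the library cancels except through the pseudocount. On GRCm38 the gap is 2 bases between Acan and Hapln3, 2222 bases between Ncan and Hapln4, 21519 bases between Bcan and Hapln2 and 43659 bases between Vcan and Hapln1. Of the 5 planned ratios, 3 could be computed, since Hapln1 and Hapln3 did not pass the filter. The p-values below are from the exact 2-sided permutation test over 924 assignments of the libraries, adjusted over the 3 ratios.

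The log2 ratio of Tnc to Tnr was -3.46 ± 0.37 (SD, n = 6) in siNC and -4.69 ± 0.29 in siEgr2, and the ranges, -3.93 to -2.99 against -5.20 to -4.43, did not overlap. The difference was -1.23, with an adjusted p of 0.00649 in the exact permutation test, from a raw p of 0.00216, the smallest it can give. The log2 ratio of Hapln2 to Bcan was -7.16 ± 0.20 in siNC and -6.89 ± 0.26 in siEgr2. Its difference of 0.27 had an adjusted p of 0.104 in the exact permutation test, and without siEgr2 replicate 2 it was 0.34 with an adjusted p of 0.039, while over all alternatives the adjusted p ran from 0.039 to 0.286 by permutation. The log2 ratio of Hapln4 to Ncan was -7.21 ± 0.34 in siNC and -7.10 ± 0.42 in siEgr2, with an adjusted p of 0.623 in the exact permutation test.

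**Figure D4:**
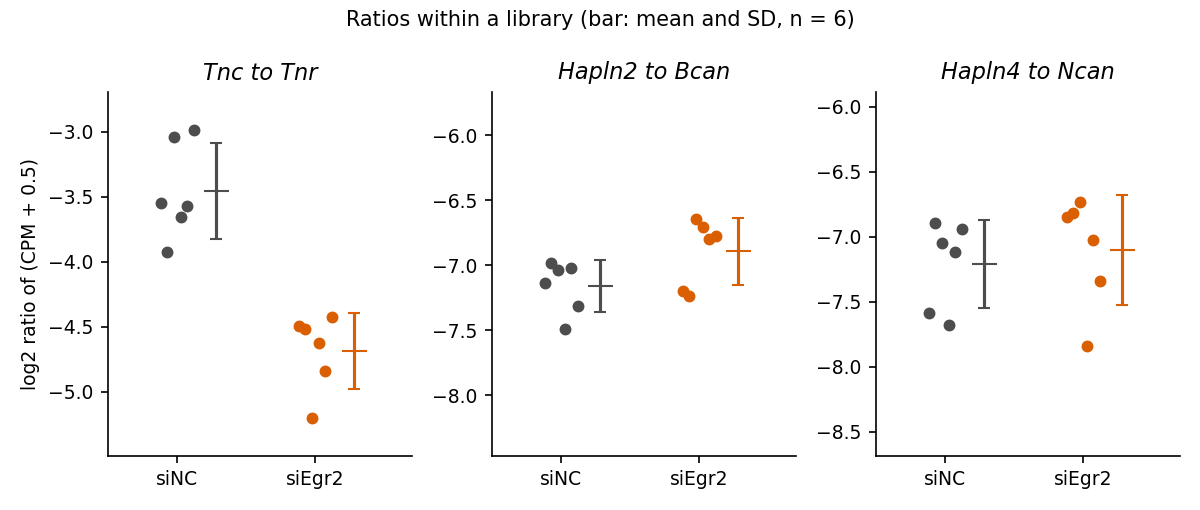
Log2 ratio of (CPM + 0.5) within each library for Tnc to Tnr, Hapln2 to Bcan and Hapln4 to Ncan, with 1 point for each library and bars for the mean and SD of 6. The siNC and siEgr2 points are apart for Tnc to Tnr and overlap for the other pairs.

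The genes that build, cut and bind this matrix were counted by the same rule, and each count of lower calls below stands beside 5.08% of all tested genes. No test of a list against other genes was run. Of 19 tested genes of chondroitin sulfate synthesis and sulfation, 1 was called lower and 0 higher (median log2 fold change -0.08), a share near the 5.08% of all tested genes called lower. The called gene was Chst7, a sulfotransferase of chondroitin, at 17.9 ± 1.2 CPM in siNC and 11.9 ± 1.7 CPM in siEgr2 (SD, n = 6). The genes of the list with the highest mean CPM, the sulfotransferase Chst11 and the xylosyltransferase Xylt1 that starts each chain, had log2 fold changes of 0.17 ± 0.04 and 0.44 ± 0.06 (SE), with adjusted p of 0.00379 and 6.29e-05 in edgeR's test, under the fold threshold.

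Of 9 tested proteases that cut lecticans, 2 were called lower and 0 higher (median log2 fold change -0.19). Mmp3, the stromelysin, had a level of 125 ± 31.9 CPM in siNC and 35.1 ± 3.5 CPM in siEgr2 (SD, n = 6), and its log2 fold change was -1.84 ± 0.15 (SE). Adamts5, an aggrecanase, had levels of 33.2 ± 1.9 and 21.8 ± 3.9 CPM, and its log2 fold change was -0.60 ± 0.10. Adamts1 and Adamts4, with the highest CPM of the list averaged over the 12 libraries, had log2 fold changes of -0.10 ± 0.06 and -0.19 ± 0.06 and were not called.

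Of 18 tested receptors and binding partners, 3 were called lower and 0 higher (median log2 fold change -0.16). Fbln2 (fibulin-2, which binds lectican lectin domains) had a log2 fold change of -1.18 ± 0.12 (SE), Sdc4 (syndecan-4, a heparan sulfate proteoglycan that binds tenascin-C) -0.92 ± 0.07 and Rtn4rl1 (a Nogo receptor homolog that binds chondroitin sulfate) -0.79 ± 0.19. These are the 3 called genes. Those with the highest mean CPM, Nfasc (neurofascin) and Itgb1 (an integrin subunit), had log2 fold changes of -0.13 ± 0.09 and -0.12 ± 0.03 and were not.

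Of 11 tested genes of hyaluronan synthesis, binding and breakdown, 3 were called lower and 0 higher (median log2 fold change -0.15). They were Itih5 and Itih3, heavy chains that become bound to hyaluronan, at log2 fold changes of -0.81 ± 0.11 and -0.78 ± 0.11 (SE), and the hyaluronan receptor Cd44 at -0.76 ± 0.11. Cemip, a hyaluronan-degrading protein and the gene of the list with the highest mean CPM, had a log2 fold change of -0.22 ± 0.08 and was not called.

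Of 9 tested genes among the other chondroitin sulfate proteoglycans and tenascins of neural tissue, 0 were called lower and 1 higher (median log2 fold change 0.12), beside 2.63% of all tested genes called higher, and 2 of the 9 had a negative log2 fold change. Cspg4 (NG2, the proteoglycan that marks OL precursors) rose, at 223 ± 15.1 CPM in siNC and 330 ± 13.6 CPM in siEgr2 (SD, n = 6), and its log2 fold change was 0.56 ± 0.05 (SE). The gene of the list with the highest mean CPM, Ptprz1 (the receptor form of phosphacan), had a log2 fold change of 0.15 ± 0.04 and was not called. Cspg4 and Ptprz1 are also among the 10 markers of OL precursors, so the 2 lists are not independent. Of these 10, 2 were called higher, Cspg4 itself and Pdgfra, and 0 lower. The summed level of the 10, with Cspg4 and Ptprz1 included, was 5517 to 5869 CPM in siNC and 6839 to 6937 CPM in siEgr2. The part of these cells in the levels of Vcan and Cspg4 was not tested.

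**Figure D5:**
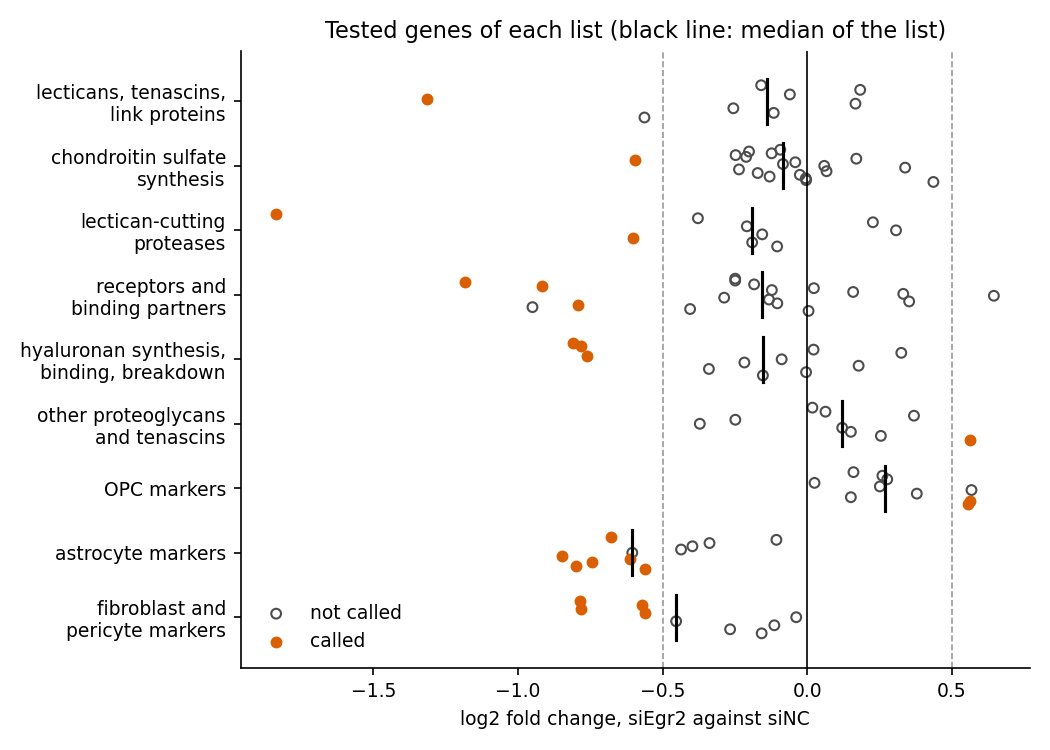
Log2 fold change, siEgr2 against siNC, of each tested gene of the matrix lists and of 3 lists of cell type markers, with called genes in orange, genes not called as open circles and the median of the list as a black line. Called genes lie on the lower side among the members and in the lists of chondroitin sulfate synthesis, proteases, partners and hyaluronan genes. They also lie there for astrocyte markers and for fibroblast and pericyte markers, and on the higher side for other proteoglycans and precursor markers.

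The genes whose profile was nearest to that of Tnc were Anxa6 (annexin A6, a calcium-dependent membrane-binding protein) and Hbegf (a ligand of the EGF receptor), among 12514 genes whose mean log2 CPM was 2 or more. Likeness was the root mean square difference of log2 CPM, centred by gene, over the 12 libraries, and it was 0.177 for Anxa6 and 0.191 for Hbegf. Anxa6 had a level of 145 CPM in siNC and 68.4 CPM in siEgr2, and Hbegf of 56.4 and 26.7 CPM, each with a log2 fold change of -1.08. The difference between the groups is part of this likeness, so a fall near that of Tnc follows from the choice.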

How the data were processed

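Raw counts per gene symbol of 12 RNA-seq libraries were deposited by the authors with no normalization. Total RNA was extracted with TRIzol and read at 50 bp on the Illumina platform, and the labels name the build mm10. The aligner, the counting program and the handling of strand are not given in the sources used here. Tnr, Tnc, Vcan, Hapln1 and Ncan overlap other annotated genes, but exons meet exons only for Tnr (with Gm38039) and Tnc (with 8030451A03Rik). In those exons the counts of Tnr and Tnc cannot be fully separated from those of the other gene. An entry without a symbol (1 row) was left out.

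The analysis used edgeR 4.0.16 in R 4.3.3, with filterByExpr by group, TMM scaling, the robust quasi-likelihood test without covariates, and Benjamini-Hochberg adjustment over 16600 genes. The study gives the same thresholds and names no test. CPM are on the TMM scale, and log2 of CPM used a pseudocount of 0.5. Depth ran from 8034251 to 39383014 counts. Over 30 pairs of libraries within a group, the chi-square per gene was 7.15 to 37.2, so no library was a copy of another. The procedure was tested on simulated data.

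The members and the lists were chosen with earlier results of these data known. Genes named are the 10 members and Egr2, from each matrix list up to 4 called genes with the largest change and the 2 with the highest mean CPM, and the 2 genes nearest in profile to each called member. Genes named for quality checks come from marker lists. The alternatives were RLE, upper-quartile and library size scaling, DESeq2 1.42.0, limma-voom (limma 3.58.1), 2 other filters, a replicate block, a residual principal component, thinning to the smallest total, removal of structural RNA, other thresholds and pseudocounts, and each library left out. GENCODE M21 (GRCm38) gave coordinates and exon lengths, and 95.6% of the tested genes matched it by symbol. RefSeq gave the promoters.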

Additional observations from a re-analysis of the deposited data

Results flagged for a closer look

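Hapln3 in siEgr2 replicate 6 stood apart from its group, at 1.17 CPM (12 counts) where the other 5 siEgr2 libraries had 0 to 0.309 CPM. Of 22 groups of 6 libraries examined, for the 10 members and Egr2, this was the 1 flagged, and chance flags about 1 in 20 groups.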

How the results depend on the processing

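The call of Tnc held in all 26 alternatives, with log2 fold changes from -1.50 to -1.23 and adjusted p at most 0.0039. Without the fold threshold, 2 members passed as lower (Ncan and Tnc) and 1 as higher (Vcan), in place of 1 and 0. With library size scaling, Egr2 was called at -0.70 (adjusted p 0.0144; over all its alternatives 0.0144 to 1, edgeR and the other tools), where it was at -0.33 after thinning (0.267) and at -0.39 without siEgr2 replicate 1 (0.184), Vcan turned to -0.014, and 88% of 1974 called genes were lower, in place of 65.9% of 1281. The counts over all genes were 3300 without the fold threshold, 373 at a log2 fold change over 1 and 237 by glmTreat. The cause of these differences was not tested beyond the shift of the median of all genes under library size scaling. Leaving out each library in turn gave differences between the groups in the log2 ratio of Hapln2 to Bcan from 0.20 to 0.34, against 0.27 with all libraries, and past the threshold without siEgr2 replicate 2. Acan went to -1.35 by limma-voom. Under library size scaling Bcan and Tnr were at -0.30 and -0.24, with adjusted p of 0.0034 and 0.00202 in edgeR, and Ncan, Hapln2 and Hapln4 were at -0.44, 0.001 and -0.34.

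Replicate numbers were shared by the groups, but same-numbered libraries did not deviate together (correlations of -0.04 to 0.04, and 2 of 6 matched best with their own number), so they were not taken as pairs. With a replicate block, 1124 genes were called in all, Tnc remained called at -1.30 (adjusted p 0.00236 in edgeR), Egr2 was at -0.52 (0.0584), and the paired exact sign-flip test of the log2 ratio of Tnc to Tnr gave -1.23 with an adjusted p of 0.0938, the smallest that 6 pairs and 3 ratios allow. Counts were fewest for Acan, Hapln1 and Hapln3: without the filter the log2 fold changes of Hapln1 and Hapln3 were 0.25 and -0.16, with adjusted p of 0.868 and 0.933 in edgeR. In fits without 1 siEgr2 library, which let them pass the filter (Hapln3 except without replicate 6), Hapln1 lay between 0.001 and 0.56, and Hapln3 changed sign, between -0.18 and 0.14.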

Other observations

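The first intron of Tnr, at chr1:159524216-159737509 on GRCm38, holds 2 annotated genes on the same strand whose exons do not meet an exon of Tnr, and both were called higher in siEgr2. They were looked at after their values were seen. Gm37731, at chr1:159595148-159597384 and of the class TEC (to be experimentally tested), had 0 to 14 counts in siNC and 24 to 77 in siEgr2, in libraries of lower depth. Its level was 0 to 0.41 CPM against 1.95 to 5.76 CPM, and its log2 fold change was 4.13 ± 0.52 (SE), at an adjusted p of 3.05e-05 by edgeR. Gm10530, at chr1:159614749-159684876, had 0.275 to 0.524 CPM against 0.865 to 2.03 CPM, and its log2 fold change was 1.89 ± 0.32, at an adjusted p of 0.000499 by edgeR. The groups did not overlap for either, while Tnr itself had a log2 fold change of -0.06.

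Of 379 tested genes of the class TEC, 65 (17.2%) were called higher and 1 lower, with a median log2 fold change of 0.30, beside 2.63% of all tested genes called higher. The share of 18S ribosomal RNA was also higher in every siEgr2 library, and its part in these counts was not tested. The antisense gene Gm38039, whose exons meet exons of Tnr, had a log2 fold change of -0.01 and was not called. The antisense gene 8030451A03Rik, whose exons meet exons of Tnc, had at most 25 counts in a library, against 548 or more for Tnc.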
